A study of Homo sapiens with 9 samples.

Results

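The early response of SUIT2 cells to interferon beta was read from 6 RNA sequencing libraries out of 9 in the series: 3 control libraries and 3 from cells exposed to interferon beta at 100 U/mL for 6 h. SUIT2 is an established human pancreatic cancer cell line, and interferon beta is a type I interferon, a cytokine that cells release when they sense viral or misplaced nucleic acid. The remaining 3 libraries, from cells exposed for 24 h at the same dose, entered the same statistical model and are quoted beside single genes. Every gene of the deposited count table that passed a filter on low counts was taken, 16964 of 59609. No genotype or engineered allele is named, all cells belong to 1 line, and no duration is recorded for the control cultures, so the age of the culture and its change of medium cannot be told apart from interferon where the control was not handled for the same time. Nothing in the labels says that the 3 libraries of a group came from separate cultures, and p-values therefore measure the spread between these libraries, which may be technical.

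Type I interferon binds a receptor made of the chains IFNAR1 and IFNAR2. The kinases JAK1 and TYK2 then phosphorylate STAT proteins, which join IRF9 into the complex ISGF3, and this complex binds a DNA element called the ISRE in the promoters of interferon-stimulated genes. Another element, the GAS, is bound by pairs of STAT proteins. Many of the induced proteins block virus replication directly, others carry the signal further or shut it off, and others display peptides to T cells.

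Libraries held 15101734 to 19632741 estimated counts in control and 16799278 to 37420457 at 6 h, so the 6 h libraries were on average deeper. The first principal component of the 6 libraries held 67.1% of the variance and separated the groups, and each pair of replicates differed by more than sampling noise. Of 18 markers of pancreatic duct and carcinoma epithelium 17 passed the low-count filter, among them KRT8, KRT18 and EPCAM, whose control means were 2569, 1006 and 140.5 CPM. CPM here is a gene's count scaled to a common library total after TMM scaling. Of 18 leukocyte markers 3 were tested and 10 were at 0 in all 6 libraries, among the 17 markers of fibroblasts, endothelium and acinar cells 4 were tested and 7 were at 0, and the summed leukocyte marker level was 258.3 to 261.3 CPM in control and 372.2 to 389.1 CPM at 6 h. Most of that sum came from LYZ, at 226.6 CPM in control and 258.2 CPM at 6 h, and from the lysosomal membrane protein CD68, which rose from 32.9 to 120.3 CPM. In bulk RNA, fewer cells of a kind and less RNA per cell cannot be told apart.

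The response at 6 h was lopsided in size and nearly even in number. In edgeR's quasi-likelihood fit, after adjustment by the method of Benjamini and Hochberg, 5576 genes (32.9% of those tested) had an adjusted p under 0.05, and 2968 of them (17.5%) rose while 2608 (15.4%) fell. Most of these changes were small: 1954 rises and 2126 falls were under 1.5-fold, and the median log2 fold change was 0.36 among rises and -0.31 among falls, beside -0.01 over all genes tested. At 2-fold or more there were 636 rises (3.75%) and 129 falls (0.76%). At 4-fold or more there were 307 rises and 9 falls, at 8-fold 182 and 2, and at 16-fold 110 and 0. A fitted rise of 256-fold or more was reached by 9 genes. Among them GBP1P1, USP30-AS1, GBP7 and PLEKHG7 had 0 counts in every control library, so their fitted folds have no measured base. Set against 3 counts over the control group, they rose at least 44.0-, 30.5-, 27.3- and 24.2-fold. The 3 libraries of one group lay wholly above the 3 of the other for 628 of the 636 rises and 117 of the 129 falls of 2-fold or more, beside 42.1% of all genes tested in either direction. The near-even number of rises and falls hung on the scaling: 53.2% of called genes rose with TMM factors, 21.2% with library size alone and 88.4% in the authors' normalized table, and the median log2 change of all genes was -0.005, -0.15 and 0.13 in the same order. Falls of 2-fold or more numbered 251 with library size alone and 8 in the normalized table on log2(value + 1), and rises of that size numbered 556 and 525.

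**Figure D1:**
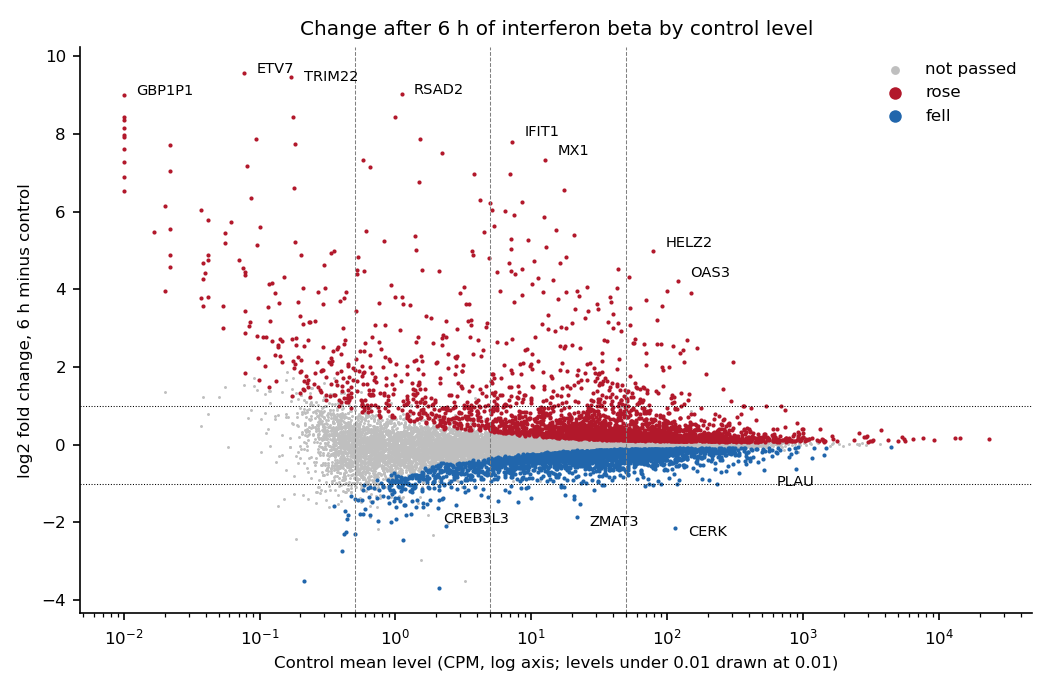
Log2 fold change at 6 h (vertical axis) against the mean control level in CPM (horizontal log axis) for the 16964 genes tested; red points rose, blue points fell and grey points did not pass. Dotted lines mark 2-fold and dashed lines mark 0.5, 5 and 50 CPM; the rises reach a log2 of 9.57 at low control levels and the deepest falls lie near -3.68, also at low levels.

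Genes that control cells hardly expressed and genes they already expressed contributed differently to the number and to the amount of induced RNA. Of the 636 rises of 2-fold or more, 169 had a control mean under 0.5 CPM, 193 lay between 0.5 and 5 CPM, 206 between 5 and 50 CPM and 68 at 50 CPM or more. The lowest class made up 26.6% of the rises and 46.4% of the 110 rises of 16-fold or more, and it supplied 582.9 CPM of the summed gain, 0.951% of 61300 CPM. The class between 5 and 50 CPM supplied 28850 CPM (47.1%) and the class at 50 CPM or more 26810 CPM (43.7%). Among the rises of the lowest class the median level at 6 h was 1.14 CPM, and among those of the highest it was 313 CPM. Of the 1054 genes tested in the lowest class 16% rose 2-fold or more, and of the 4289 in the highest 1.59% did. A gene with few control counts passes the filter only through the libraries in which it is high, so the share in the lowest class is a description of the genes that were tested. The fold and the amount thus ranked genes in different orders: 169 genes that rose 2-fold or more reached 100 CPM at 6 h and 11 reached 1000 CPM.

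The antiviral effectors, a list of 60 genes, show what this amount meant for the library as a whole. They held 0.219%, 0.231% and 0.237% of all counts in the control libraries and 2.69%, 2.68% and 2.69% (replicates 1 to 3) at 6 h. The means were 0.229% ± 0.00877 and 2.69% ± 0.00755 (SD, n = 3), an 11.7-fold difference, and the groups did not overlap. All genes that rose 2-fold or more together held 1.20% of control counts and 6.73% at 6 h, and those that fell 2-fold or more held 0.125% and 0.0501%. These last 2 shares describe genes chosen by the same contrast, and the antiviral list was itself chosen with earlier results of these data known. Mitochondrially encoded transcripts took 10.2% ± 0.208 of control counts and 10.3% ± 0.265 at 6 h.

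Induction from near zero was followed at equal total counts. Each of the 6 libraries was thinned at random to 15101664 counts, and a gene counted as induced from near zero if it had at most 3 thinned counts over the 3 control libraries and at least 30 over the 3 libraries at 6 h. Only the total was matched: TMM factors were 1.013 to 1.016 in control and 0.918 to 0.9237 at 6 h. Of 39066 genes with so few control counts, 29 met this rule and 38133 stayed at 3 counts or fewer at 6 h. No gene met the mirrored rule, with at most 3 counts at 6 h and at least 30 in control. Of the 29 genes 18 are protein coding and 11 are long noncoding RNAs, pseudogenes or unclassified transcripts, and for 8 all 3 control libraries held 0 counts. Just outside the rule, 34 genes had 15 to 29 counts at 6 h and 19 had 4 to 6 control counts, while 14 of the 29 members had 30 to 59 counts.

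ETV7, an ETS-family repressor of transcription, was the exception. It had 0, 2 and 2 counts in control and 958, 1374 and 2131 at 6 h, which is 810 times as much per effective library size with an exact counting interval of 316 to 2970. At 24 h it stood at 265, 155 and 228 counts. IDO1, the enzyme that starts tryptophan breakdown along the kynurenine path, had 0, 0 and 1 counts in control and 75, 120 and 168 at 6 h, a ratio of 263 (47.0 to 10400). The intervals cover counting error only. For both genes every 6 h library lay far above every control library, but the rules that picked these genes required such a gap. The width of the intervals comes from the control counts.

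Guanylate-binding proteins are large GTPases that attack membranes around intracellular pathogens. GBP7 had 0 counts in each control library and 22, 41 and 50 at 6 h, at least 27.3-fold more when set against 3 counts over the whole control group. The pseudogene GBP1P1 had 0 in each control library and 37, 52 and 93 at 6 h, at least 44.0-fold more on the same floor. GBP7 overlaps GBP2, a relative on the same strand that rose by 1.59 on the log2 scale. The assignment of reads in the shared stretch is therefore uncertain for both. Reads from similar copies may also count toward the pseudogene GBP1P1, and neither point was tested. PLEKHG7, which carries a domain found in activators of small GTPases, went from 0 in each to 23, 27 and 50 counts (at least 24.2-fold).

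Noncoding transcripts of the set often sat beside strongly induced neighbours. USP30-AS1, antisense to the mitochondrial deubiquitinase USP30, went from 0 counts in each control library to 20, 32 and 74, at least 30.5-fold more, while USP30 did not pass, at -0.11. PRAL went from 0 in each to 23, 28 and 34 counts (at least 20.6-fold) and overlaps XAF1, an interferon-induced promoter of apoptosis that rose from 4.96 ± 1.55 to 363.4 ± 21.5 CPM. Of the 29 genes 4 overlapped a gene that rose 4-fold or more and reached 5 CPM, and 7 (24.1%) lay within 5 kb of one. The same held for 0.548% and 0.979% of all genes tested, and for 14 and 20 of the 109 genes that rose 4-fold or more from at least 5 CPM. Whether strand was used in counting is not known from the sources at hand, and reads of a gene and of its overlapping or antisense neighbour could then not be told apart, and their part in these counts was not tested.

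Of the 3 chemokines that draw T cells through the receptor CXCR3, CXCL9 had 0 counts in all 6 libraries and the others came from the same range. CXCL10 had 0, 2 and 1 counts in control and 28, 48 and 92 at 6 h, a ratio of 40.6 (13.7 to 199), and CXCL11 had 0, 1 and 1 against 12, 26 and 42, a ratio with an interval of 7.78 to 244. CXCL10 and CXCL11 stayed low in absolute terms, at 2.24 and 1.07 CPM. At 24 h they stood at 0.304 and 0.248 CPM.

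**Figure D2:**
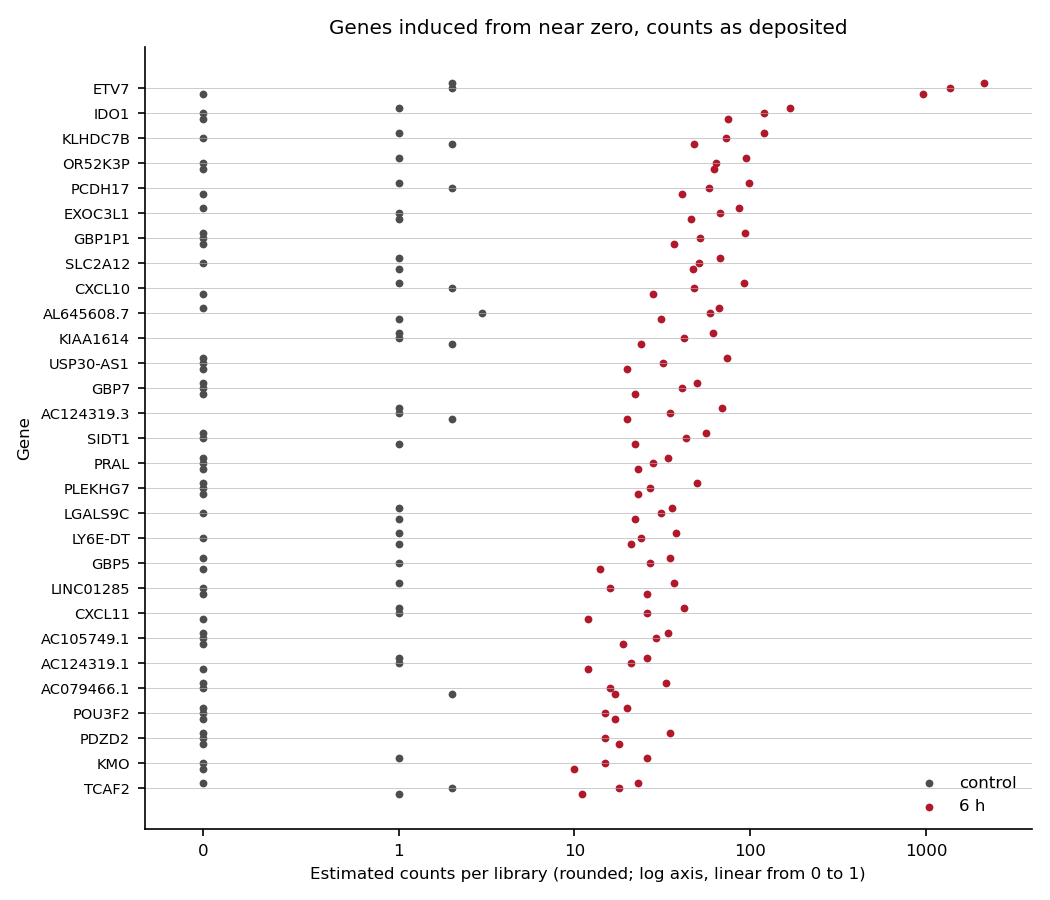
Estimated counts per library (horizontal axis, log scale with a linear stretch from 0 to 1) for the 29 genes induced from near zero, with 3 control libraries in grey and 3 libraries at 6 h in red for each gene; points are shifted vertically by replicate. No control library holds more than 3 counts, ETV7 reaches 2131 at 6 h, and the other genes lie between 10 and 168.

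The genes named next also had a control mean under 0.5 CPM, but more than 3 thinned control counts kept them outside the near-zero rule. TRIM22, a ubiquitin ligase with antiviral activity, measured 0.180, 0.201 and 0.130 CPM in control and 121, 126 and 131 CPM at 6 h. It overlaps TRIM5, which itself rose from 13.3 to 134.3 CPM. BATF2, a transcription factor of the AP-1 family, measured 0.120, 0.151 and 0.261 CPM in control and 62.9, 61.4 and 60.3 CPM at 6 h (log2 fold change 8.43, SE 0.12, adjusted p 1.65e-17). At 24 h it was back to 2.84 CPM, which was lower than at 6 h by 4.43 (SE 0.063).

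RTP4, which helps receptors reach the cell surface, rose from 0.180, 0.101 and 0 CPM to 22.5, 24.1 and 23.7 CPM (log2 fold change 7.86, SE 0.24). TNFSF13B, the B cell survival factor BAFF, rose from 0.240, 0.0503 and 0.261 CPM to 35.5, 39.0 and 39.3 CPM (7.74, SE 0.17). ZBP1, a sensor of Z-form nucleic acid that can start necroptosis, rose from 0.0600, 0.0503 and 0.130 CPM to 10.6, 13.0 and 11.8 CPM (7.18, SE 0.29). All 3 were clear of the control range in every library, which the rule for naming them required. At 24 h they had dropped to 5.92, 1.76 and 0.508 CPM.

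CD274, the checkpoint ligand PD-L1, measured 0.120, 0.352 and 0.0652 CPM in control and 17.7, 18.7 and 20.9 CPM at 6 h (log2 fold change 6.61, SE 0.23, adjusted p 2.25e-12). CASP1, the caspase of inflammasomes, rose from 0.182 ± 0.125 to 6.57 ± 1.01 CPM. SOCS1, an inhibitor of JAK kinases, rose from 0.435 to 6.60 CPM and stood at 0.340 CPM at 24 h. For genes with so few control counts, here and above, the SEs can fall well below counting error, since they are derived from the test statistic.

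Genes already expressed gained far more RNA. IFIT1, which binds viral RNA that lacks a host cap, measured 4.92, 6.14 and 10.6 CPM in control and 1542, 1570.2 and 1612 CPM at 6 h (log2 fold change 7.80, SE 0.11). MX1, a GTPase that traps viral nucleoproteins, measured 9.17, 12.7 and 15.8 CPM in control and 2012, 2016 and 2032 CPM at 6 h (7.34, SE 0.089). The control libraries of both genes spread more widely in relative terms than the 6 h libraries. The groups did not overlap, which the rule for naming these genes required. IFIT3, a partner of IFIT1, rose by 6.97 (SE 0.073), OAS2, which makes the activator of RNase L, by 6.55 (SE 0.054), and USP18, which takes ISG15 off proteins and blocks IFNAR2, by 6.26 (SE 0.047). IFIT1 and IFIT3 overlap LIPA, which rose by 1.55.

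Further large rises from 5 CPM or more belonged to HERC6, a HECT-type ubiquitin ligase, at 6.04, to OASL, a relative of the OAS enzymes, at 6.03, and to the RNA helicases IFIH1 and DDX58, which sense viral RNA, at 5.92 and 5.85. LGALS9, a galectin that binds immune receptors, followed at 5.64, the ubiquitin-like modifier ISG15 at 5.53 and SAMD9L, an inhibitor of translation in infected cells, at 5.39, all on the log2 scale with adjusted p of 4.11e-17 or less. Among these, ISG15 and LGALS9 held most of their level at 24 h (576 and 226.8 CPM, beside 699.6 and 270.4 CPM at 6 h). Levels of DDX58 dropped in the same interval from 708.7 to 113.6 CPM.

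The largest rises from 50 CPM or more were those of HELZ2, SAMD9, OAS3, PARP14, RNF213 and APOL6. HELZ2, a helicase and nuclear coactivator, measured 69.6, 73.2 and 92.7 CPM in control and 2600.4, 2531 and 2350.0 CPM at 6 h (4.99 on the log2 scale, SE 0.081), the largest rise in its class. OAS3, the OAS enzyme most active on viral RNA, went from 107, 123 and 131 CPM to 2228, 2178 and 2237 CPM (4.21, SE 0.053). RNF213, a giant ubiquitin ligase, went from 133, 139 and 174 CPM to 2185, 2052 and 2452 CPM (3.91, SE 0.085). PARP14, an ADP-ribosyltransferase, rose by 3.95 (SE 0.042), SAMD9, a relative of SAMD9L, by 4.32 (SE 0.050) and APOL6, an apolipoprotein L, by 3.73 (SE 0.045). By 24 h APOL6 was at 133.4 CPM beside 69.4 CPM in control and 917.3 CPM at 6 h, whereas OAS3 was still at 1595 CPM.

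Sequences near the start sites were compared because the choice of the comparison had used none. RefSeq promoter windows on GRCh38.p14, from 250 bases before to 50 bases after each start, were at hand for 10630 of the 16964 genes tested (15421 windows, since a gene can have several). They were searched on both strands for an ISRE-like motif, GAAANNGAA, where N is any base. The stretches below, each cut around 1 match with the match in capitals and read 5′ to 3′ along the gene, come from genes in different control classes and lie wholly before the start site. CXCL10, SOCS1, IFIH1 and SAMD9 are on the minus strand and the others on the plus strand. Capitals that begin with TTC are the motif read on the opposite strand.

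RTP4, chr3:187368322-187368372: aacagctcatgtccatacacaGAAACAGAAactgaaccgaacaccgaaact
CXCL10, chr4:76023689-76023739: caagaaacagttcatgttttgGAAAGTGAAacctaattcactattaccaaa
CD274, chr9:5450314-5450364: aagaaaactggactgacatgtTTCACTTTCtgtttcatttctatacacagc
SOCS1, chr16:11256288-11256338: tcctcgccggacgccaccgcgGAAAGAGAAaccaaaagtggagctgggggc
IFIT1, chr10:89392487-89392537: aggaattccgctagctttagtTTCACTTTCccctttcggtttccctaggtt
ISG15, chr1:1013369-1013419: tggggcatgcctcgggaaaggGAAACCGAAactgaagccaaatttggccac
IFIH1, chr2:162318819-162318869: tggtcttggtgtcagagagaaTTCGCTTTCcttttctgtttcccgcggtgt
SAMD9, chr7:93118086-93118136: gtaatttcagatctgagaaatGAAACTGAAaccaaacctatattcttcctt
OAS3, chr12:112938310-112938360: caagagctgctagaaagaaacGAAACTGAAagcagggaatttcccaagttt

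The matches begin 42 bases before the start in RTP4, 221 in CXCL10, 207 in CD274, 113 in SOCS1, 115 in IFIT1, 107 in ISG15, 164 in IFIH1, 136 in SAMD9 and 143 in OAS3. Several windows hold more than 1 match, often overlapping: the stretch of RTP4 runs on into a GAAACTGAA that shares bases with the one in capitals. Each stretch is shown because it holds a match, so the set says nothing of how common matches are. The genes shown ran from CXCL10, at 2.24 CPM at 6 h, to OAS3, at 2214 CPM.

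The share of windows with an ISRE-like match went with the size of the rise. It was 48.9% among genes that rose 16-fold or more (45 of 92 windows), 30.7% for 4- to 16-fold (51 of 166), 15.3% for 2- to 4-fold and 9.20% for smaller rises. It was 6.71% over all windows of genes tested, 5.60% among genes that were not called, 4.59% among falls under 2-fold and 4.17% among falls of 2-fold or more (4 of 96). Among rises of 2-fold or more it was 27.3% for a control level under 0.5 CPM, 24.1% for 0.5 to 5 CPM, 23.6% for 5 to 50 CPM and 33.3% from 50 CPM. How far it varied with the control level hung on the motif and the windows counted: in the same order the narrower GAAACNGAA gave 7.07%, 5.67%, 11.6% and 16.7%, and genes with 1 window gave 29.1%, 24.6%, 33.7% and 43.6% for GAAANNGAA. A GAS-like motif, TTCNNNGAA, was found in 6.12% of all windows, in 16.3% of those of the 16-fold class and in 18.1% of the 4- to 16-fold class. A match is a string of letters and not a bound site, and no window was at hand for ETV7 or TRIM22.

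**Figure D3:**
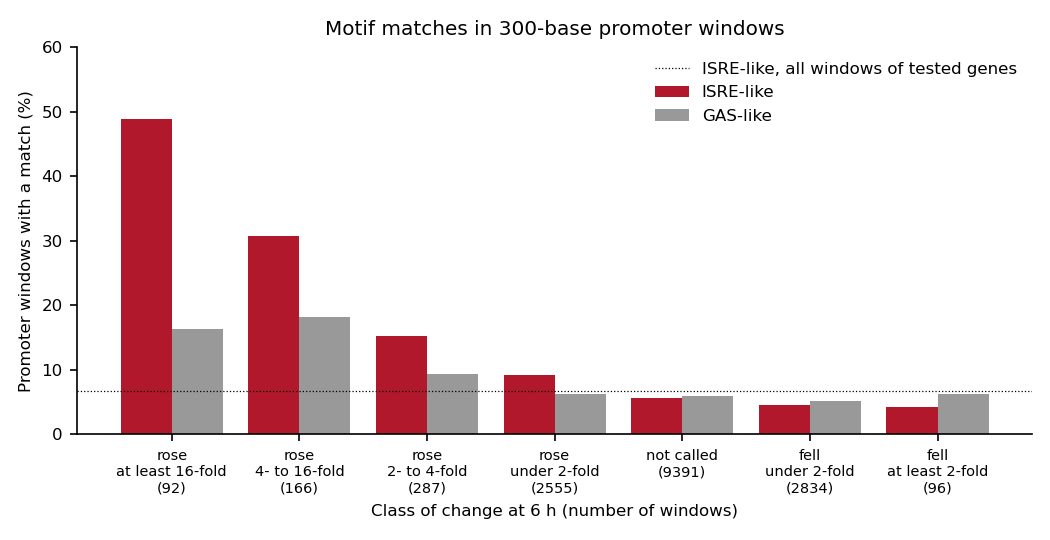
Percent of 300-base promoter windows with at least 1 ISRE-like (red) or GAS-like (grey) match, by class of change at 6 h; the number of windows stands under each class and the dotted line is the ISRE-like share over all windows of genes tested, 6.71%. The red bars fall from 48.9% in the 16-fold class to 4.17% among genes that fell 2-fold or more.

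For genes of the pathway itself the counts stand beside 17.5% of all genes tested that rose and 15.4% that fell. Of 19 tested genes for receptors, JAK kinases and STAT proteins 9 rose, 3 fell and 7 did not pass, with a median log2 fold change of 0.23, whereas 6 fell with library size alone and 0 in the authors' normalized table. The share of falls in this list is near that of all genes. STAT2 rose by 3.96 (SE 0.060) and IRF9 by 2.99 (SE 0.066). IFNAR1 fell by 0.20 (SE 0.043), from 59.8, 63.0 and 63.0 CPM to 52.2, 52.3 and 56.1 CPM, and IFNAR2 did not pass, at 0.03 (SE 0.052). In the normalized table IFNAR1 was at -0.04 and did not pass. The other falls, named after their values were seen, were IL10RB, a chain shared by the receptors of interferon lambda and IL-10, from 12.3 ± 1.53 to 9.18 ± 2.26 CPM, and STAT5B, from 28.5 ± 0.295 to 23.1 ± 0.619 CPM. Inhibitors of the pathway had 10 rises, 4 falls and 5 that did not pass of 19 (8 rises and 5 falls with library size alone, 8 and 0 in the normalized table). The rises included USP18, ISG15, SOCS1 and TRIM21, a cytosolic antibody receptor and ubiquitin ligase that went from 11.95 to 104.5 CPM.

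Interferon regulatory factors and induced transcription factors rose in 13 of 17 cases, 1 fell and 3 did not pass (median 2.35; 2 fell with library size alone and 0 in the normalized table). Here too 17.5% of all genes tested rose and 15.4% fell. Behind ETV7 and BATF2 stood NLRC5, the transactivator of class I genes, from 4.50 to 198.1 CPM, and SP110, a nuclear body protein, from 10.5 to 274.0 CPM. ELF3, an epithelial ETS factor, was the 1 that fell, from 129, 125 and 114 CPM to 84.4, 88.8 and 82.8 CPM, and did not pass in the normalized table (-0.35). Of 19 sensors of nucleic acids and their adaptors 17 rose, 1 fell and 1 did not pass (median 1.85; 15 rose and 0 fell in the normalized table). The fall was that of MAVS, the mitochondrial adaptor of the RNA helicases, from 93.7 ± 1.89 to 82.5 ± 3.25 CPM (log2 fold change -0.18), singled out after its value was seen.

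All 59 tested antiviral effectors rose, 56 of them 2-fold or more, with a median log2 fold change of 3.94. Over all genes tested 17.5% rose, 3.75% rose 2-fold or more and 15.4% fell. The lists were chosen with earlier results of these data known. Among the effectors RSAD2, which makes a chain-terminating nucleotide, reached 569.7 CPM and GBP4, a guanylate-binding protein, 337.1 CPM, both from about 1 CPM. All 19 genes of ISG15 and ubiquitin conjugation rose as well (median 3.22), led by HERC5, the main ligase for ISG15, from 1.26, 1.31 and 1.89 CPM to 160.0, 161 and 162 CPM. Of 16 ADP-ribosyltransferases 11 rose, 1 fell and 4 did not pass (median 0.45; 4 fell with library size alone and 0 in the normalized table), with PARP10 at 4.06 and PARP14 at 3.95 the largest rises.

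Of 24 class I presentation genes 22 rose and 2 did not pass (median 1.51), beside 17.5% of all genes tested that rose. TAP1, a subunit of the peptide transporter, rose from 42.8 to 698.2 CPM, PSMB9, an immunoproteasome subunit, from 8.56 to 122.7 CPM, and the class I gene HLA-F from 5.92 to 92.9 CPM. B2M, the light chain that all class I molecules share, went from 537.5 ± 4.26 to 1075 ± 11.5 CPM and on to 1318 CPM at 24 h. Class II genes stayed lower, with 8 of 9 tested rising (median 1.71): their transactivator CIITA went from 1.92, 1.81 and 1.96 CPM to 11.5, 11.5 and 11.6 CPM. The protease CTSS rose by 2.11 and the thiol reductase IFI30 by 2.08, and both were still at 40.9 and 41.7 CPM at 24 h.

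Of 27 chemokines, cytokines and growth factors 13 were tested, 8 rose, 1 fell and 4 did not pass (median 1.57; 2 fell with library size alone and 0 in the normalized table). The counts in this paragraph stand beside 17.5% of all genes tested that rose and 15.4% that fell. CSF1, the growth factor of macrophages, went from 3.30, 3.37 and 3.26 CPM to 42.4, 39.5 and 41.7 CPM and was at 7.03 CPM at 24 h. The 1 that fell was IL18, a cytokine stored by epithelia, from 58.3 ± 4.40 to 39.5 ± 1.81 CPM, named after its value was seen. Of 35 cell death genes 32 rose and 3 fell (median 1.42; 30 and 0 in the normalized table), led by XAF1 and CASP1. Of 11 interferon genes 1 was tested, and it did not pass with TMM factors (log2 fold change 0.67) but passed in the normalized table (0.47).

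**Figure D4:**
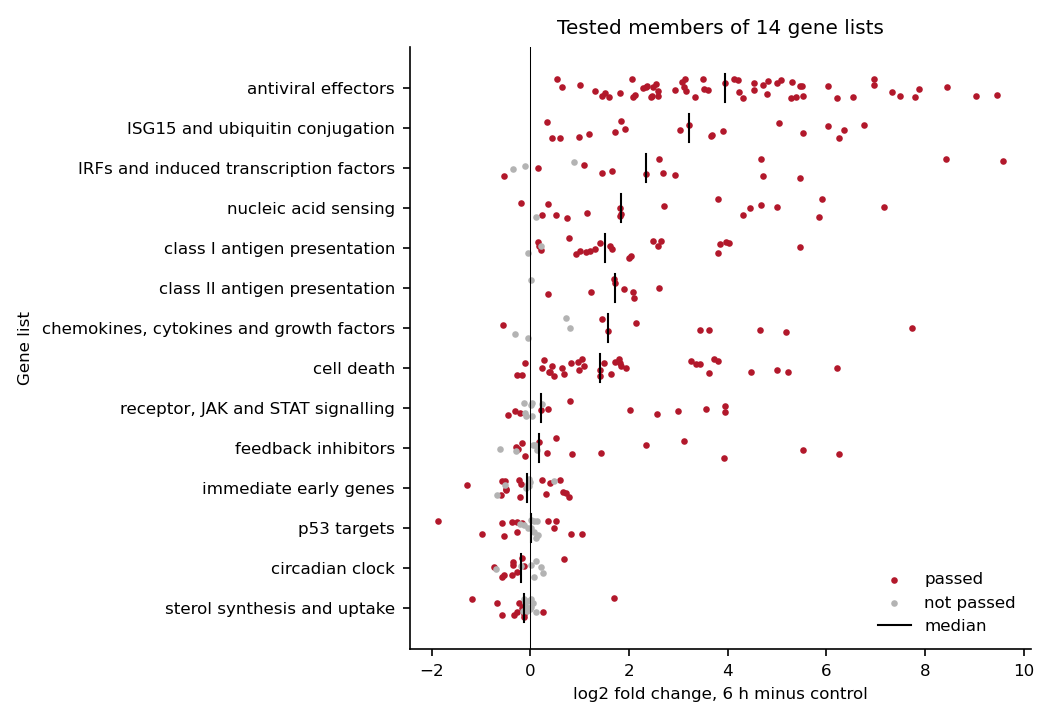
Log2 fold change at 6 h (horizontal axis) for the tested members of 14 gene lists (vertical axis); red points passed the test, grey points did not, black bars are list medians and points are spread vertically at random. The antiviral list lies wholly to the right of 0 with a median of 3.94, whereas the medians of the last 4 lists lie between -0.20 and 0.02.

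The early falls were shallower, and those of 2-fold or more sat mostly in weakly expressed genes. Of all 2608 falls 9 had a control mean under 0.5 CPM, 337 lay between 0.5 and 5 CPM, 1398 between 5 and 50 CPM and 864 at 50 CPM or more. Of the 129 falls of 2-fold or more, 102 had a control mean under 5 CPM and 27 had 5 CPM or more, and 95 were protein coding and 20 long noncoding RNAs. Only 1 of the 9 falls of 4-fold or more, that of CERK, started from 5 CPM or more. The largest fitted fall, that of the pseudogene KRT18P65 at -3.68 (SE 0.86), went from 69, 26 and 12 counts to 2, 8 and 1, so its size rests on a control group that was itself uneven. It was singled out after its values were seen, as were the neighbours below.

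CERK, the kinase that turns ceramide into ceramide 1-phosphate, measured 114, 112 and 117 CPM in control and 25.6, 25.7 and 26.0 CPM at 6 h. Of 25 tested sphingolipid enzymes CERK fell, 11 rose, by at most 0.605, and 13 did not pass, but with library size alone 5 rose and 8 fell. Among all genes tested 17.5% rose and 15.4% fell with TMM factors. ZMAT3, an RNA-binding target of p53, averaged 21.8 ± 0.283 CPM in control and measured 6.29, 4.48 and 6.83 CPM at 6 h (log2 fold change -1.87, SE 0.11). CASTOR2, a relative of the arginine sensor of mTORC1, fell from 20.6, 20.3 and 21.4 CPM to 8.31, 7.76 and 7.76 CPM. All 3 were still below control at 24 h, at 37.5, 11.5 and 12.5 CPM.

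GPATCH11 fell from 22.4, 23.7 and 22.5 CPM to 7.79, 8.09 and 8.05 CPM. It overlaps EIF2AK2, the kinase PKR that halts translation, on the opposite strand, which rose from 110.5 to 642.6 CPM. In a second pair of this kind TLDC2 fell by 1.36 (SE 0.17), from 73, 97 and 78 counts to 18, 46 and 71, beside SAMHD1, a nucleotide hydrolase that rose from 52.8 to 609.4 CPM. FNDC11, with 4, 9 and 8 counts in control and 1, 2 and 1 at 6 h, lies within 5 kb of HELZ2. Those 3 were the only ones of the 129 (2.33%) within 5 kb of a gene that rose 4-fold or more and reached 5 CPM, beside 0.979% of all genes tested.

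Further large falls from 5 CPM or more were those of CREB3L3, ANKS4B, HOXB13, CLRN3, LFNG, EFNA2 and CBX7. CREB3L3, a membrane-bound transcription factor of liver and intestine, measured 7.55, 7.70 and 8.54 CPM in control and 2.79, 2.59 and 3.08 CPM at 6 h (log2 fold change -1.47, SE 0.12, adjusted p 6.82e-08). ANKS4B, a scaffold of the brush border, fell by 1.31 (SE 0.063), from 20.4, 21.3 and 20.6 CPM to 8.76, 8.55 and 7.99 CPM. HOXB13, a homeobox factor, fell by 1.16 (SE 0.12), and CLRN3, a membrane protein of the clarin family, by 1.09 (SE 0.081). LFNG, a glycosyltransferase that modifies Notch, fell by 1.29 (SE 0.11), EFNA2, an ephrin ligand, by 1.08 (SE 0.079), and CBX7, a Polycomb subunit that reads methylated histone H3, by 1.08 (SE 0.11). Of the 17 tested markers of pancreatic duct and carcinoma epithelium 7 rose, 6 fell and 4 did not pass (median 0.08). These stand beside 17.5% of all genes tested that rose and 15.4% that fell. Rises and falls of the markers numbered 5 and 8 with library size alone, and 3 and 0 in the normalized table. The number of falls in this list thus hung on the scaling.

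The same rule named 8 more genes of varied function. PPFIBP2, a scaffold protein of the liprin family, fell by 1.45 (SE 0.12), from 5.34, 6.24 and 5.48 CPM to 2.21, 1.85 and 2.18 CPM. NDP, the secreted ligand norrin, fell by 1.22 (SE 0.14), and CDON, a coreceptor for Hedgehog, by 1.12 (SE 0.12). TNFRSF10D, a decoy receptor for the death ligand TRAIL, went from 29.5, 27.4 and 29.6 CPM to 12.2, 12.01 and 13.9 CPM. The small GTPases RAB40B and GEM fell by 1.36 (SE 0.10) and 1.12 (SE 0.11), ADPRHL1, a relative of ADP-ribosyl hydrolases, by 1.10 (SE 0.15), and LONRF2, a ubiquitin ligase, by 1.06 (SE 0.055). In each of these genes the 3 libraries at 6 h lay below the 3 control libraries, which the rule for naming them required.

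Falls from 50 CPM or more were led, after CERK and LONRF2, by P2RY2, a receptor for extracellular ATP and UTP, from 81.7, 76.9 and 76.9 CPM to 36.2, 39.2 and 38.3 CPM. ADGRA3, an adhesion receptor, went from 73.9 to 36.3 CPM, KRT80, a keratin, from 90.6 to 44.8 CPM and AGAP1, a regulator of ARF GTPases, from 118.4 to 58.6 CPM, all close to 2-fold. In absolute CPM the largest losses were in abundant transcripts that fell by much less than 2-fold. PMEPA1, an inhibitor of TGF-beta signalling, fell by 0.62 (SE 0.028), from 888.6 to 576.4 CPM, and PLAU, the protease urokinase, by 0.64 (SE 0.030), from 515.0 to 329.9 CPM. SLC7A5, an amino acid transporter, fell by 0.34 (SE 0.033), FRMD8, a partner of the iRhom proteins, by 0.32 (SE 0.038) and HSPA12A, a distant HSP70 relative, by 0.72 (SE 0.034). ACTG1, a cytoskeletal actin, had -0.06 (SE 0.021, adjusted p 0.0437), a call that was lost under 9 alternatives and turned to 0.11 in the authors' normalized table.

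**Figure D5:**
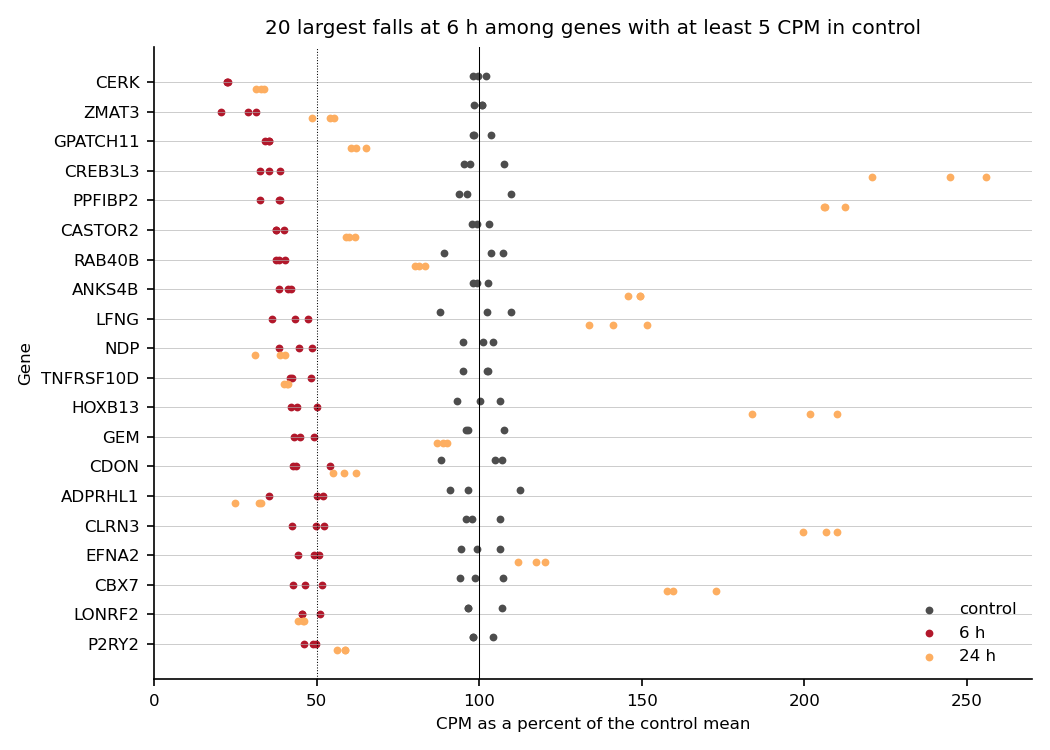
CPM as a percent of each gene's control mean (horizontal axis) for the 20 largest falls from at least 5 CPM, with 3 control libraries in grey, 3 at 6 h in red and 3 at 24 h in orange. The red points lie at or below about 50 percent for most genes, while the orange points of CREB3L3, PPFIBP2, HOXB13 and CLRN3 lie well above the control points.

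Among lists chosen for possible falls, those of sterol and clock genes held more falls than rises with TMM factors, beside 15.4% of all genes tested that fell and 17.5% that rose. Of 27 genes of sterol synthesis and uptake 12 fell, 2 rose and 13 did not pass, with a median log2 fold change of -0.12. INSIG1, which holds the sterol sensor in the endoplasmic reticulum, went from 7.31, 7.95 and 6.85 CPM to 5.26, 5.73 and 3.63 CPM, and MVK, mevalonate kinase, fell by 0.57 (SE 0.10). STARD4, a carrier of cholesterol, rose instead, from 5.96 to 19.5 CPM. Of 17 clock genes 9 fell, 1 rose and 7 did not pass (median -0.20): the repressors PER1 and PER2 fell by 0.74 and 0.37 and the activator TEF by 0.57, while the nuclear receptor NR1D1 rose from 18.8, 17.4 and 18.3 CPM to 29.1, 28.2 and 29.8 CPM. In the authors' normalized table on log2(value + 1) the sterol median was 0.05 with 1 fall and 1 rise, and the clock median -0.03 with 0 falls and 1 rise. With library size alone 21 sterol genes and 10 clock genes fell.

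Immediate early genes, p53 targets and genes of RAS and ERK output are read beside the same 17.5% and 15.4%. Immediate early genes had 7 rises, 9 falls and 8 that did not pass of 24 (median -0.06), or 6 rises and 14 falls with library size alone and 6 and 1 in the normalized table. KLF2, a factor that keeps endothelium and T cells quiescent, fell by 1.28 (SE 0.20), from 4.29 to 1.81 CPM, whereas its relative KLF4 rose from 25.2 to 42.1 CPM and IER2 from 59.2 to 102.7 CPM. Of 23 p53 targets 5 rose and 8 fell (median 0.02; 12 fell with library size alone and 2 in the normalized table), with ZMAT3 the largest fall. Of 22 genes of RAS and ERK output 5 rose and 6 fell (median -0.03; 1 and 12 with library size alone, 1 and 0 in the normalized table). Among inhibitors of ERK signalling in this list DUSP4, a phosphatase, rose by 0.47 (SE 0.033), from 271.1 to 376.3 CPM, while DUSP5 and SPRED2 fell by 0.46 and 0.39. TGFB2, a TGF-beta ligand, fell by 1.43 (SE 0.25), from 2.10 to 0.751 CPM. E2F2, a cell cycle transcription factor, fell by 0.82 (SE 0.097), and CLDN4, a tight junction protein, by 0.63 (SE 0.053). All 13 mitochondrially encoded genes rose slightly with TMM factors (median 0.16) and none was called with library size alone (median 0.02), where the median of all genes was -0.15.

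Many early values did not hold at 24 h. Both contrasts share the 6 h libraries, so the 24 h levels are given side by side with the others. CREB3L3 was at 7.93 ± 0.532 CPM in control, 2.82 ± 0.247 at 6 h and 19.1 ± 1.41 at 24 h. PPFIBP2 was at 5.69, 2.08 and 11.8 CPM in the same order, HOXB13 at 6.37, 2.88 and 12.6 CPM, and CLRN3 at 17.5, 8.42 and 35.9 CPM. For these 4 the difference between 24 h and 6 h had an adjusted p of 8.86e-11 or less, beside 57.2% of all genes tested that were called between the 2 times. NDP, TNFRSF10D and LONRF2, in contrast, stood at 2.50, 11.7 and 31.1 CPM at 24 h, and their difference from 6 h did not pass (adjusted p 0.228, 0.114 and 0.280). GEM returned to 7.42 CPM beside 8.37 CPM in control. Of all genes tested, 7.33% were called in opposite directions against control at 6 h and 24 h and were also called between the 2 times.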

How the data were processed

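Total RNA of SUIT2 cells was extracted with a column kit and sequenced on a HiSeq 3000, per the labels' protocols. The submitters' processing notes name STAR 2.7.8a, Partek and hg38. For the annotation, the counting method and its strand setting no source used here gives a statement. Estimated counts per gene were deposited by the authors; these need not be whole and were rounded here, whereas the design had assumed whole counts. A second deposited table holds a TMM-normalized signal. Checked against the counts, it holds each count plus 0.0001, times 1 multiplier per library, and 2 of the 3 libraries at 6 h carry the multiplier of a control library: replicates 1 share 0.05031 (totals 16456647 and 16799278) and replicates 2 share 0.04763 (totals 19632741 and 23447549). Values from this table rest on these multipliers.

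The test was edgeR 4.0.16's quasi-likelihood test (with limma 3.58.1 in R 4.3.3), in 1 model of 9 libraries with TMM factors that left 6 residual degrees of freedom. Genes needed the equivalent of 10 counts at the median library total in enough libraries, and 15 counts in all. The threshold was a Benjamini-Hochberg adjusted p of 0.05. Script and tests were tested on simulated data with known changes. SEs are of log2 fold changes, values with ± are mean and SD of 3 libraries, and CPM uses TMM factors. CPM do not correct for gene length, so levels of different genes are compared as shares of the library only. Sequences are from RefSeq on GRCh38.p14, and start positions are those of the RefSeq transcripts.

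The gene lists, the rules and the comparison itself were chosen with earlier results of these data known, and nothing is supported by that choice. Genes are named by rule: called, with groups that do not overlap, and among the 12 largest rises from under 0.5 CPM, the 12 from 5 CPM or more, the 6 from 50 CPM or more, the 20 largest falls from 5 CPM or more, the 6 from 50 CPM or more, the 6 largest gains and 6 largest losses in CPM, or up to 4 called members per list. A few genes were named for the study question whatever their result, and not all genes that qualify are printed. Replicate numbers come from the titles. Deviations of same-numbered control and 6 h libraries correlated at -0.051, -0.075 and -0.055, so the numbers were not taken as pairs. Alternatives were DESeq2 1.42.0, limma-voom, other scalings and filters, fits of 2 groups, the replicate number as a block, leaving out libraries 1 at a time, limma on the authors' normalized table (pseudocount 1 or 0.1), thinned counts and a threshold of 0.01. Python 3.11.15 was used for summaries.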

Additional observations from a re-analysis of the deposited data

Results flagged for a closer look

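In 22 of the 108 genes examined under the alternatives, the change against control had opposite called directions at 6 h and at 24 h, and the difference between the times passed as well (edgeR quasi-likelihood test, adjusted p under 0.05). The same held for 1244 of all genes tested (7.33%), 583 of them lower at 6 h and 661 higher, and many of the 22 were named for their fall at 6 h, so the 2 shares are not read against each other. The 2 contrasts against control share the control libraries, and the values below are log2 differences of 24 h against 6 h.

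Lower than control at 6 h and higher at 24 h were CREB3L3 (2.74), PPFIBP2 (2.51), HOXB13 (2.15), CLRN3 (2.13), ANKS4B (1.88), LFNG (1.79), CBX7 (1.78), EFNA2 (1.30) and HSPA12A (0.82). The sterol genes INSIG1 (3.76) and MVK (1.04) had the same order. INSIG1 went from 7.37 CPM in control to 4.87 CPM at 6 h and 63.3 CPM at 24 h. E2F2 (1.81), a cell cycle factor, and the clock genes PER1 (1.00), TEF (0.86) and PER2 (0.59) followed. ELF3 (1.52) and CLDN4 (0.88), which mark epithelium, and SPRED2 (0.68), an inhibitor of RAS signalling, completed this direction.

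Higher than control at 6 h and lower at 24 h were DUSP4 (-1.66), NR1D1 (-1.22), IER2 (-1.0) and MT-CO1 (-0.42). The rise of MT-CO1 at 6 h did not pass with library size alone. In the authors' normalized table the 6 h change did not pass for 9 of the 22, namely ELF3, INSIG1, MVK, PER1, PER2, TEF, CLDN4, SPRED2 and MT-CO1. No duration is recorded for the control cultures, so a change with time in culture cannot be told apart from a change with interferon in these 22 genes.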

How the results depend on the processing

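Direction and side of the threshold held for the named genes in 1786 of 1833 comparisons of 108 genes with 17 alternatives. The falls were the part most exposed to scaling. Called genes numbered 1826 and 1854 in the authors' normalized table (pseudocount 1 and 0.1), against 5576. Falls of 2-fold or more numbered 8 and 66 there, 251 with library size alone and 207 without the low-count filter, against 129. For these the cause was not tested. IFNAR2 turned to -0.11 with library size alone, and ranged from -0.0004551 to 0.057 with a library left out. ACTG1 turned to 0.11 in the normalized table with either pseudocount. Leaving out each library in turn gave 4722 to 5489 called genes, 630 to 669 rises and 119 to 160 falls of 2-fold or more. Samples of 1 group left with 2 libraries shared the pooled spread.

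Genes induced from near zero (29) numbered 44 without thinning, 8 with no control count allowed, 63 and 15 with at least 15 and 60 counts at 6 h, and 21 to 50 with a library left out, the highest without control replicate 1, and was 46 without control replicate 3, since fewer libraries make the fixed bound of 3 counts looser. Genes lost to near zero (0) numbered 17 with a bound of 15 counts, and 0 to 7 with a library left out (7, 2 and 6 without 6 h replicates 1, 2 and 3). The antiviral share at 6 h was 3.00% without mitochondrially encoded genes in the total. The ISRE-like share in the 16-fold class was 20.7% for GAAACNGAA, and 56.2% among genes with 1 window, an alternative chosen after seeing the data.

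With the replicate number as a block, 5149 genes were called, 629 rose and 117 fell 2-fold or more. Of the named genes ACTG1 lost its call under this block. The labels do not say that the numbers mark pairs and the libraries gave no sign of it, so a call lost here is not read as a weaker effect. DESeq2 called 4500 genes, with 600 rises and 102 falls of 2-fold or more. Depth limits the near-zero genes: at equal total counts 3 counts over a group was the floor.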

Other observations

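The genes induced from near zero included 2 enzymes of tryptophan breakdown, IDO1 and KMO. Beside IDO1, KMO, the hydroxylase that acts further down the kynurenine path, had 0, 0 and 1 counts in control and 10, 15 and 26 at 6 h. At 24 h the mean level was 0.126 CPM for IDO1 and 0.0581 CPM for KMO. KMO was singled out after its values were seen, and the path was not examined as a list.

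Control libraries differed slightly in their interferon-stimulated genes. Of the 59 tested antiviral effectors, 4 had their highest control level in control replicate 1, 25 in replicate 2 and 30 in replicate 3, beside 5720, 5378 and 5866 of the 16964 genes tested. The summed level of the list was 2164, 2286 and 2328 CPM in the same order. The spread is small beside the level at 6 h, and the source of it was not tested.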
